A study of Mus musculus with 12 samples.

Results

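Macrophages under endoplasmic reticulum (ER) stress were set directly against macrophages activated with lipopolysaccharide (LPS), to find the genes whose level marks one stimulus rather than the other. The comparison took 6 of the series' 12 RNA sequencing libraries, the 3 labelled Tm (tunicamycin) and the 3 labelled LPS. A gene was tested if it had at least 1 FPKM (fragments per transcript length and sequencing depth) in at least 3 of the 12 libraries, which 10311 of the 24346 genes in the deposited table did, and 9852 genes met the same limit within the 6 libraries alone. Each difference is the mean log2(FPKM + 1) with tunicamycin minus that with LPS, so positive values are higher with tunicamycin. Folds are on that scale, which understates the change of low genes.

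The cells were bone marrow-derived macrophages of mice labelled WT, grown from marrow for 7 days with M-CSF, the growth factor of the lineage, and 10% serum. Control cells got neither agent, the Tm group tunicamycin (5 ug/ml), the LPS group LPS (1 ng/ml for 3 h), and the group with both agents tunicamycin for 3 h and then LPS for 3 h, with 3 libraries in each. The series asked how ER stress alters the inflammatory response. The exposure time of the Tm group is not stated in the labels, so stimulus and exposure time cannot be told apart. The labels also leave unsaid whether the replicates of a group came from different mice or cultures, and the spread behind each p-value may then be technical. Read depth is unknown, because FPKM keeps no count. Summed FPKM was 561108 to 563002 with tunicamycin and 666198 to 685010 with LPS, and 9507 to 9741 genes per library reached 1 FPKM. In bulk RNA, fewer cells of a type and less RNA per cell cannot be told apart.

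Tunicamycin blocks the enzyme that starts the sugar chain of N-linked glycoproteins, so unfolded protein builds up in the ER. The unfolded protein response then signals through IRE1 and the factor XBP1, through ATF6, and through PERK, whose arm raises the factors ATF4 and CHOP (gene Ddit3). LPS, from the wall of Gram-negative bacteria, binds the receptor TLR4 with its partner CD14, and signals through MyD88 to NF-kB and through TRIF to interferon-beta, whose receptor then drives the interferon-response genes.

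Promoters of genes from each side are shown first, since they carry the sequence elements by which the 2 responses are usually known. The sequences are the 250 bases before the start in RefSeq's GRCm38.p6 table (the mouse build mm10), written 5' to 3' on the gene's strand, with matches in capitals. Searched on either strand were the ER stress elements ERSE (CCAAT, any 9 bases, CCACG) and ERSE-II (ATTGG, any 1 base, CCACG), a composite site of ATF4 and CHOP (TGATG, any 1 base, AA), an NF-kB site (GGG, any 3 bases, TTCC) and an interferon-stimulated response element, ISRE (GAAA, any 2 bases, GAAA). None of these motifs contains another, and overlapping matches were each kept. Hspa5, the ER chaperone BiP, was read from chr2:34771840-34772089 on the plus strand, and Herpud1, a factor of ER-associated degradation, from chr8:94386179-94386428 on the plus strand. Cxcl10, an interferon-induced chemokine, came from chr5:92348890-92349139 on the minus strand, and Ifit1, an antiviral protein of the interferon response, from chr19:34640639-34640888 on the plus strand.
Hspa5: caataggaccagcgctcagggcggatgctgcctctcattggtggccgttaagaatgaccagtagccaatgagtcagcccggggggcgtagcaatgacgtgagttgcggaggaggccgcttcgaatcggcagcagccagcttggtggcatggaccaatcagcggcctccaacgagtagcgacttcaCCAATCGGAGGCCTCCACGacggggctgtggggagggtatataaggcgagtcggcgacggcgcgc
Herpud1: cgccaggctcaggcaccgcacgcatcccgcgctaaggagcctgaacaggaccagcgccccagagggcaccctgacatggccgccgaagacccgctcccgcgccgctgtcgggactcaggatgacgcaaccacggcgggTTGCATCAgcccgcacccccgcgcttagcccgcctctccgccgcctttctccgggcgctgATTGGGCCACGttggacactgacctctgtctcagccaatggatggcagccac
Cxcl10: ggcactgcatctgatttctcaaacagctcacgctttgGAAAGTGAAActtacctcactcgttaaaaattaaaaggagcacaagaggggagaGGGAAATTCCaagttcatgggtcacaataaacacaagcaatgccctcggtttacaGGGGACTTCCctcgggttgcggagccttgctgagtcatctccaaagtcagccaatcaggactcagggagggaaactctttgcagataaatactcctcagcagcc
Ifit1: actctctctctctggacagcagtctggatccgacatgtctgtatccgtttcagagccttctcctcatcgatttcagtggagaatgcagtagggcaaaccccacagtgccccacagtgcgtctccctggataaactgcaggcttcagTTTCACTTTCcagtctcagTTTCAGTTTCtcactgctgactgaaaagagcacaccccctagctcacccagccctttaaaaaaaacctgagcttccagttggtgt
Counted back from the start, Hspa5 held an ERSE at bases -65 to -47. Herpud1 held an ERSE-II at -52 to -42 and, on the other strand, the composite site at -112 to -105. Cxcl10 held an ISRE at -213 to -204 and NF-kB sites at -159 to -150 and -104 to -95. Ifit1 held ISRE letters on the other strand at -104 to -95 and -85 to -76. In the same window Trib3, Ddit3, Il1b and Tnf had no match to these letters, and their promoters are not printed.

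Of the named genes, Trib3, Ddit3 and Chac1 differed most on the tunicamycin side. All are counted below among the ATF4-CHOP factors, feedback genes and targets. Activity of the PERK arm itself was not measured. Trib3, a pseudokinase that feeds back on CHOP (chr2:152337422-152344032, minus strand), was at 368, 386 and 379 FPKM with tunicamycin and at 2.00, 1.34 and 1.10 with LPS. The groups lay far apart, with a log2 difference of 7.27 ± 0.15 (SE; limma adjusted p = 1.82e-15). Ddit3 itself, on chromosome 10, was at 1478, 1564 and 1760 FPKM with tunicamycin against 49.2, 42.6 and 35.4 with LPS (log2 5.21 ± 0.15, limma adjusted p = 7.40e-14). Its level with LPS overlapped that of the controls, which were at 42.0 to 52.7 FPKM. Chac1, an enzyme that degrades glutathione, was at 31.4 ± 4.17 FPKM (SD, n = 3) with tunicamycin and below 1 in every LPS library. Gadd45a, a growth arrest gene, stood at 158 ± 28.0 FPKM against 6.98 ± 1.09, and Sesn2, a stress-induced restraint on mTORC1, at 53.9 ± 3.60 against 5.75 ± 1.28.

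ER chaperone and degradation genes marked the same side. Hspa5 was at 7233, 10560 and 10990 FPKM with tunicamycin and at 1110, 1233 and 1250 with LPS. No LPS library came near the lowest tunicamycin library, which was replicate 1 (log2 2.98 ± 0.14, 7.88-fold, limma adjusted p = 5.48e-11). The same replicate was also the lowest of the 3 for Dnajb9, a BiP co-chaperone (94.7, 119 and 125 FPKM), Creld2 (226, 336 and 372), Pdia4 (272, 430 and 508) and Manf (200.5, 258 and 256). Herpud1 was at 915, 994 and 1031 FPKM against 84.8, 68.3 and 66.5 with LPS, and averaged 16.8 in the controls. For Herpud1 the LPS libraries thus lay between the controls and the tunicamycin libraries.

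On the LPS side the leading markers were cytokine and chemokine genes. The 15 largest log2 differences on that side had sizes of 4.93 to 9.23, against 2.98 to 7.27 on the tunicamycin side. Il1b, the gene of interleukin-1 beta (chr2:129364570-129371139, minus strand), was at 815, 784 and 820 FPKM with LPS and at 0.168, 0.455 and 0.434 with tunicamycin (log2 -9.23 ± 0.15, limma adjusted p = 1.08e-16). Controls were likewise low, at 0.379 to 0.775. Irg1, named Acod1 in GENCODE, makes the metabolite itaconate (chr14:103046977-103056573, plus strand). It was at 1693, 1889 and 1691 FPKM with LPS and at 7.42, 7.55 and 4.91 with tunicamycin, with no overlap (log2 -7.87 ± 0.18). Tnf, tumour necrosis factor (chr17:35199381-35202007, minus strand), was at 692, 812 and 723 FPKM against 6.58, 6.21 and 5.52 (log2 -6.71 ± 0.16). Il27, a cytokine subunit that shapes T cell responses, was at 60.2, 80.8 and 71.9 FPKM with LPS and listed at 0 in all 3 tunicamycin libraries.

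**Figure D1:**
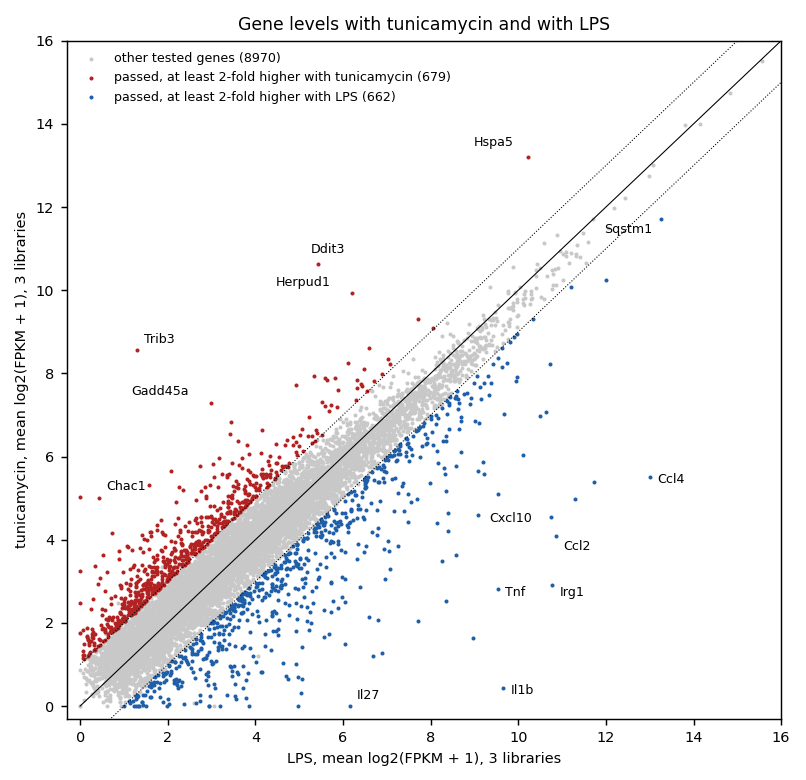
Mean log2(FPKM + 1) over 3 libraries with LPS (x axis) and with tunicamycin (y axis) for the 10311 genes tested, with the line of equal levels and dotted lines at 2-fold. Red points are the 679 genes that passed and were at least 2-fold higher with tunicamycin, blue points the 662 at least 2-fold higher with LPS; Trib3 lies farthest above the line and Il1b farthest below it.

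Over all genes, 3829 of 10311 (37.1%) had a limma adjusted p below 0.05 and are said to have passed. Of these 1805 (17.5%) were higher with tunicamycin and 2024 (19.6%) higher with LPS, and 6482 genes (62.9%) did not pass. The passing genes included 679 (6.59%) at least 2-fold higher with tunicamycin and 662 (6.42%) with LPS. In the deposited values, larger gaps were more often on the LPS side. There 180 genes (1.75%) differed at least 4-fold against 81 (0.786%) on the tunicamycin side, and 28 (0.272%) at least 16-fold against 5 (0.0485%). The 3 libraries of each agent did not overlap in 5343 genes (51.8%). A 95% interval inside 2-fold, in either direction, was found for 6573 genes (63.7%), while 1141 genes neither passed nor were bounded in this way. Genes near 0 FPKM with both agents can fall inside the bound because of the scale, so being bounded does not show that such genes are alike. The share of passing genes that were higher with tunicamycin depends on how libraries are scaled. It was 47.1% with the deposited values, 46.7% with median-of-ratios scaling and 53.5% with quantile normalization. After scaling every library to the same FPKM sum it was 71.8%, and the median of all genes moved from 0.013 to 0.254. Counts with libraries scaled to equal sums are given below for some lists, and the others also gained or lost calls. The NF-kB list went from 31 to 25 genes higher with LPS, and the interferon-response list from 22 to 18. Quantile normalization moved lists too. Lysosome and autophagy genes went from 6 on each side to 19 higher with tunicamycin and 2 with LPS.

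**Figure D2:**
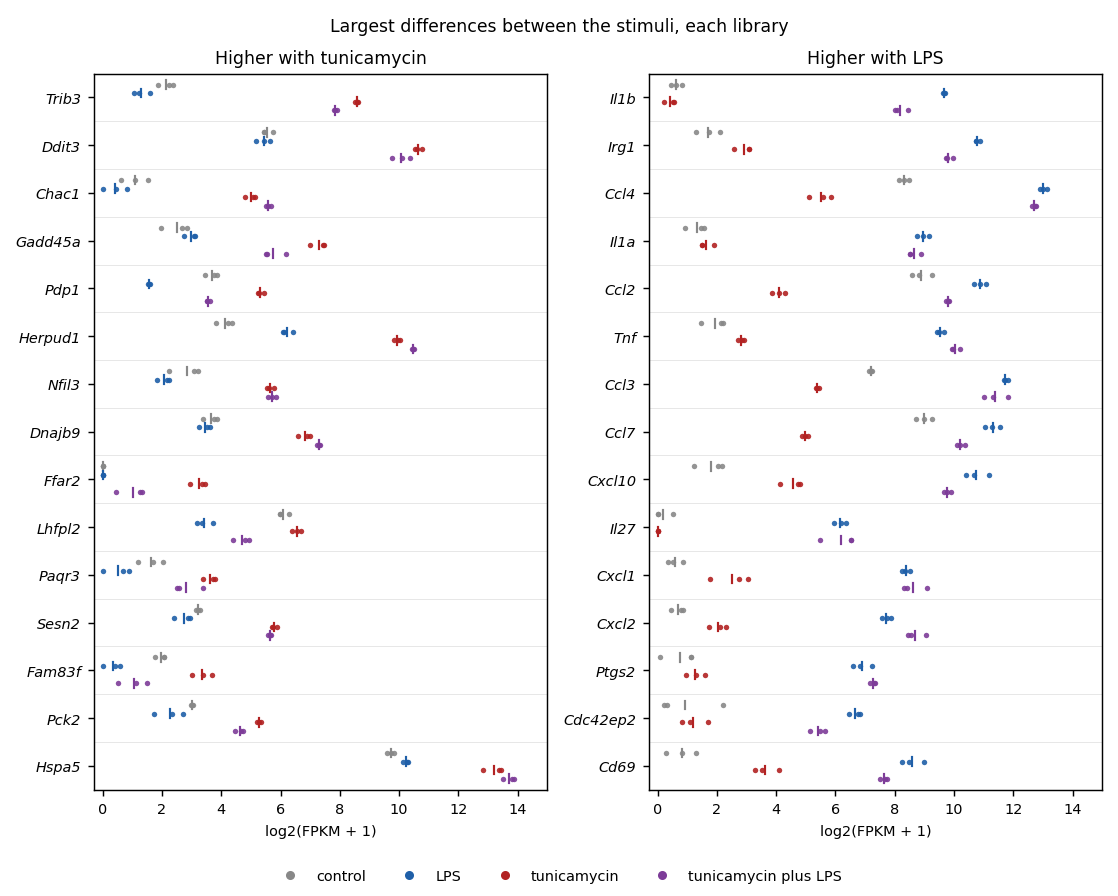
Values of log2(FPKM + 1) in each library of the 4 groups (points; ticks are group means of 3) for the 15 genes with the largest differences on each side. The 3 tunicamycin and 3 LPS libraries are separate for every gene; controls lie near the lower group for most genes, and Ccl2 and Ccl7 are the exceptions on the LPS side.

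Control levels are given beside both agents as a description, because both single-agent groups share those controls. Among the 15 largest differences per side, controls were nearer the lower group for 12 genes on the tunicamycin side and 13 on the LPS side. The 3 exceptions with tunicamycin were Pdp1, a phosphatase that activates pyruvate dehydrogenase, Lhfpl2 and Fam83f. Pdp1 was at 39.1 ± 3.29 FPKM with tunicamycin, 12.1 ± 1.82 in controls and 1.96 ± 0.0912 with LPS. Lhfpl2, a membrane protein gene, was at 92.6 ± 10.1, 67.4 ± 8.65 and 9.79 ± 2.13 FPKM, so that the LPS level was the one far from the controls. Ccl2 and Ccl7, attractants of monocytes, were the exceptions on the LPS side. Ccl2 was at 16.2 ± 2.62 FPKM with tunicamycin, 479 ± 115 in controls and 1877 ± 268 with LPS, and each tunicamycin library was below each control. With both agents the level was nearer the higher of the single-agent groups for 12 of the 15 tunicamycin-side genes and all 15 LPS-side genes. Ffar2, a receptor for short-chain fatty acids, was one of the others: it was at 6.66, 9.83 and 9.10 FPKM with tunicamycin, listed at 0 in all LPS and control libraries, and at 0.380 to 1.49 with both agents.

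Markers that were near absent under the other stimulus were set apart by level alone, as at least 5 FPKM in all 3 libraries of one agent and below 1 in all 3 of the other. There were 8 such genes (0.0776%) for tunicamycin and 24 (0.233%) for LPS. The tunicamycin set held Chac1, Paqr3, Fam83f, Ffar2, Acot2, an acyl-CoA thioesterase, Trp53inp1, a p53-induced gene, and 2 gene models outside the naming rule, Mir546 and E230016M11Rik. Its control libraries were all below 1 FPKM for 1 gene only, Ffar2. Apart from the microRNA gene Mir6244, the most abundant of the LPS set were Il1b, Il27, Cxcl3, Adamts4, Socs1, Il12b, Oaf, Prdm1, Edn1 and Ccl22, and controls were all below 1 FPKM for 16 of the 24. Adamts4, a matrix protease, was at 26.6, 30.2 and 39.6 FPKM with LPS and at 0.231, 0.325 and 0.169 with tunicamycin. Prdm1, a transcriptional repressor, was at 16.6 FPKM on average with LPS and 0.767 with tunicamycin. With both agents 14 of the 24 LPS genes and 3 of the 8 tunicamycin genes had at least 5 FPKM in all 3 libraries.

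Lists of pathway genes are described below by how many tested members were higher with each agent, and by their median, beside the median of 0.013 over all genes. The background shares are the 17.5% and 19.6% given above. Members below the level filter are left out of the counts: 9 of 34 cytokine genes, 8 of 19 interferon-inducible GTPases and at most 7 in any other pathway list. Some genes stand in more than 1 list. The filter takes any 3 of the 12 libraries, so some members met it only through libraries given 1 of the agents. Il1b, Il27, Il12b, Ifnb1, Cxcl3, Nos2 and Nlrp3 were below 1 FPKM in every tunicamycin and control library. Derl3 and Klf4 were below 1 FPKM in every LPS and control library. For such genes the side of the call was largely set by entry, and the counts and medians include them.

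**Figure D3:**
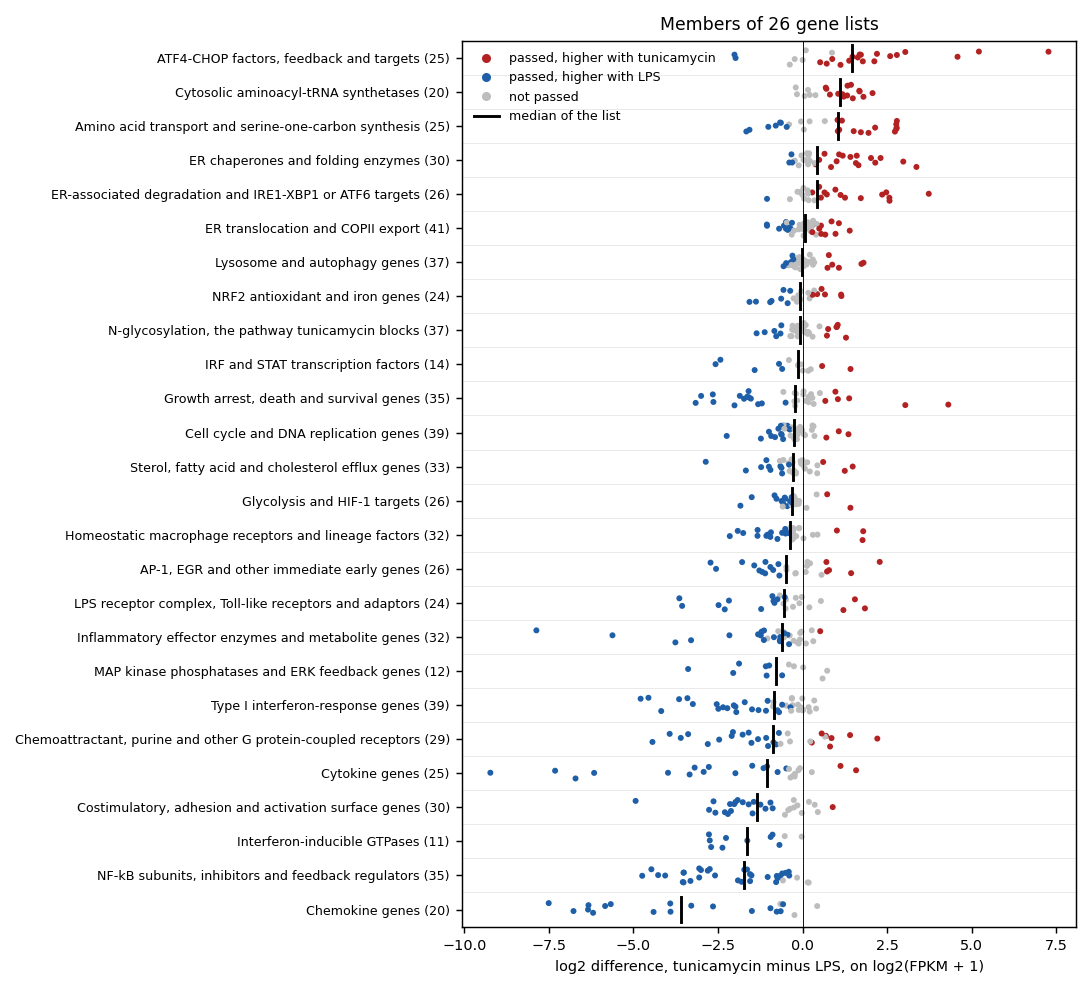
Log2 difference, tunicamycin minus LPS, of every tested member of 26 gene lists (number tested in brackets), ordered by list median (black bars). The ATF4-CHOP list has the highest median, 1.48, and the chemokine list the lowest, -3.60.

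Of the ATF4-CHOP factors, feedback genes and targets, 18 of 25 tested members were higher with tunicamycin, 2 were higher with LPS and 5 did not pass (median 1.48). Atf4 was at 228 ± 17.9 FPKM against 49.2 ± 9.43 with LPS, a 4.59-fold difference. Atf3, which many stresses and TLR4 induce, differed less, at 258 ± 33.4 against 179 ± 15.9 (log2 0.52 ± 0.11, limma adjusted p = 0.00108). The 2 members higher with LPS, named after their values were seen, were Bcl2l11, the death gene Bim, at 7.33 ± 1.09 against 32.5 ± 3.88 FPKM, and Jdp2, a repressor of AP-1, at 15.2 ± 7.15 against 58.2 ± 4.31. Cytosolic tRNA synthetase genes, classical ATF4 targets, had 14 of 20 higher with tunicamycin and 0 higher with LPS (median 1.12). Aars, for alanine, was at 234 ± 6.29 against 55.4 ± 8.03 FPKM, and the 20 genes together summed to 2016, 2154 and 2214 FPKM with tunicamycin and to 1022, 1110 and 957 with LPS. These sums did not overlap.

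Amino acid transport and the synthesis of serine and related amino acids split by gene, with 13 of 25 higher with tunicamycin, 7 higher with LPS and 5 not passed (median 1.03), or 15 and 4 after scaling to equal sums. Asns, asparagine synthetase, was at 209 ± 18.0 FPKM with tunicamycin and 29.5 ± 3.82 with LPS (log2 2.79 ± 0.14). The proline synthesis gene Aldh18a1 and the transporters Slc38a2, Slc1a4 and Slc7a5 were 6.64- to 6.89-fold higher with tunicamycin. Slc7a11, the cystine transporter and a target of both ATF4 and NRF2, went the other way, at 7.27, 7.08 and 6.82 FPKM with tunicamycin and 20.9, 20.5 and 27.9 with LPS (log2 -1.57 ± 0.20). Both sets of libraries were above the controls, which averaged 1.53 FPKM.

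Among ER chaperones and folding enzymes, 16 of 30 were higher with tunicamycin, 3 higher with LPS and 11 not passed (median 0.44), or 20 and 0 after scaling to equal sums. Summed FPKM of the list was 11950, 16660 and 17500 with tunicamycin and 4755, 4941 and 4870 with LPS, without overlap. Hspa5 made up most of the tunicamycin sum. Genes of ER-associated degradation and the IRE1-XBP1 or ATF6 arms had 14 of 26 higher with tunicamycin, 1 higher with LPS and 11 not passed (median 0.42). Syvn1, the ubiquitin ligase HRD1, was at 37.7, 37.2 and 40.9 FPKM against 5.14, 7.42 and 7.99 (log2 2.35 ± 0.15). Ern1, which encodes IRE1 alpha, was at 10.6, 17.0 and 10.7 against 1.14, 1.28 and 1.39. Xbp1 was 2.18-fold higher with tunicamycin (226 ± 8.76 against 103 ± 4.36 FPKM), a value that does not tell its spliced and unspliced forms apart.

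The glycosylation pathway that tunicamycin blocks was evenly divided in the deposited values: 6 of 37 members were higher with tunicamycin, 6 with LPS and 25 did not pass (median -0.09), against 12 and 3 after scaling to equal sums (median 0.18). Dpagt1, the enzyme that tunicamycin inhibits, was at 58.6 FPKM with tunicamycin and 61.3 with LPS, a difference of -0.06 that did not pass. This gene was named after its values were seen. Dad1, a subunit of the oligosaccharyl transferase, was at 139, 113 and 134 FPKM with tunicamycin against 358, 318 and 317 with LPS, and the controls were at 304 to 358. The LPS libraries lay within the control range there, and the tunicamycin libraries below it. ER translocation and COPII export genes were also divided, with 10 of 41 higher with tunicamycin and 11 with LPS, or 19 and 3 after scaling to equal sums. Within them Sec24d, a cargo adaptor of COPII vesicles, was 2.63-fold higher with tunicamycin, and Sec61b and Sec61g, subunits of the translocon, were 2.07-fold and 2.08-fold higher with LPS.

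The ERSE letters were searched in the promoters of both sides, as a description of sequence. Of genes at least 2-fold higher with tunicamycin, 523 of 679 had a promoter in the RefSeq table and 6 of them held an ERSE (1.15%). Of the 662 at least 2-fold higher with LPS, 513 had a promoter and 0 held one (0.0%). The share was 0.163% of the 7953 promoters of tested genes and 0.13% of all 27025 promoters. Among the 13 tested genes with the element, 9 were higher with tunicamycin, 0 higher with LPS and 4 did not pass, beside 17.5% and 19.6% of all genes. The element was first described in promoters of ER chaperones, so these genes are not independent of it. Matches are shown for the 8 passing promoters that differ in sequence and for Canx, a lectin chaperone that did not pass, with the fixed letters in capitals and each written on the strand where it reads as the motif.
Hspa5: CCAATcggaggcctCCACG
Derl3: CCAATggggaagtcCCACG
Syvn1: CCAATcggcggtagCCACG
Creld2: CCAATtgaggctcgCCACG
Dnajc3: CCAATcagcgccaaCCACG
Hsp90b1 far match: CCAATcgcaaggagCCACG
Hsp90b1 near match: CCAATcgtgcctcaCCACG
Pdia6: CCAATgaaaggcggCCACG
Calr: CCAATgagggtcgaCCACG
Canx: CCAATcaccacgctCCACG
Alg12 shares the match of Creld2, its neighbour in the opposite direction, and was 2.06-fold higher with tunicamycin. Hsp90b1, the ER member of the HSP90 family, holds 2 matches and was 1.79-fold higher, at 602.6 ± 140 against 329 ± 10.4 FPKM. Hspa5, with 1 exact match, was 7.88-fold higher. Only exact letters were counted, so near matches are left out and the numbers of matches may understate the elements of a promoter. Canx was at 196 ± 18.7 against 174 ± 15.8 FPKM (log2 0.17 ± 0.10, limma adjusted p = 0.226). The other genes with an ERSE that did not pass were Pan2, Hnrnpa3 and Adcy3.

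**Figure D4:**
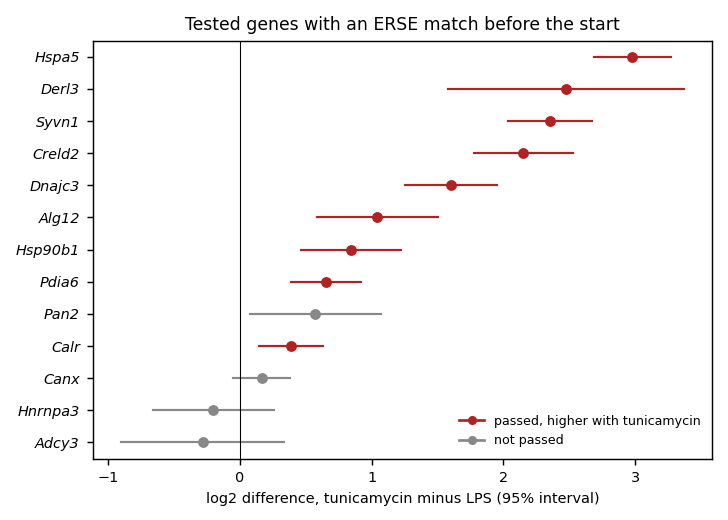
Log2 difference, tunicamycin minus LPS, with its 95% interval for the 13 tested genes with an ERSE in the 250 bases before the start. Passing genes are red and run from 0.39 for Calr to 2.98 for Hspa5; the 4 grey genes did not pass.

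The NF-kB letters were in 9.36% of promoters of genes at least 2-fold higher with LPS, 6.12% of those higher with tunicamycin and 6.37% of tested genes. ISRE letters were in 6.63%, 2.1% and 3.39% of the same sets. The composite ATF4-CHOP letters were in 4.29% on the LPS side, 3.82% on the tunicamycin side and 2.48% of tested genes. ERSE-II was in 2 promoters on the tunicamycin side (0.382%), those of Herpud1 and Lrif1, and in 0 on the LPS side.

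Chemokine genes had the lowest median of the 26 lists, with 17 of 20 higher with LPS, 0 higher with tunicamycin and 3 not passed (median -3.60). Their summed FPKM was 17750, 21310 and 19680 with LPS and 746, 838 and 869 with tunicamycin, while the controls summed to 1800 to 2423. All 3 tunicamycin libraries were thus below all controls as well. Ccl4, the chemokine MIP-1 beta, was at 7612, 9000 and 8104 FPKM with LPS and 33.3, 56.1 and 46.5 with tunicamycin (log2 -7.50 ± 0.14), beside 279 to 356 in controls. Cxcl10 differed in the other relation to control: it was at 1345, 2332 and 1623 FPKM with LPS, 25.8, 27.1 and 16.3 with tunicamycin, and 1.34 to 3.52 in controls. Cxcl1 and Cxcl2, which attract neutrophils, were at 329 ± 30.8 and 210 FPKM on average with LPS and at 5.16 ± 2.51 and 3.18 with tunicamycin.

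Cytokine genes had 15 of 25 higher with LPS, 2 higher with tunicamycin and 8 not passed (median -1.05). Il6 was at 12.5, 19.6 and 19.3 FPKM with LPS and at 0.534, 0.694 and 1.10 with tunicamycin (log2 -3.34 ± 0.22). Il12b, the shared p40 subunit of interleukins 12 and 23, varied more, from 14.6 to 50.6 FPKM with LPS, and was below 1 with tunicamycin (log2 -3.98 ± 0.48). Ifnb1, interferon-beta, was at 2.99, 4.36 and 1.89 FPKM with LPS and listed at 0 in every tunicamycin and control library. Il10, an anti-inflammatory cytokine, did not reach the level filter and was not tested. Il23a, the other subunit of interleukin 23, was near absent with either agent alone, at 0.285 ± 0.296 FPKM with tunicamycin and 0.338 ± 0.168 with LPS. It met the filter with both agents, at 43.1 to 56.5 FPKM. Its contrast did not pass (limma adjusted p = 0.824, 95% interval -0.56 to 0.41). Levels below 1 FPKM give differences near 0 on this scale, so that result does not compare the agents. The 2 cytokine-list genes higher with tunicamycin, named after their values were seen, were Il16 (log2 1.58) and Vegfa (log2 1.12).

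Of the NF-kB subunits, inhibitors and feedback regulators, 31 of 35 were higher with LPS, 0 higher with tunicamycin and 4 not passed (median -1.72). Nfkbia, the inhibitor that NF-kB induces against itself, was at 1172, 1093 and 1038 FPKM with LPS and 66.0, 62.3 and 66.7 with tunicamycin (log2 -4.06 ± 0.09), and the controls were at 64.0 to 73.3. Tunicamycin libraries therefore overlapped the controls for Nfkbia. Tnfaip3, the deubiquitinase A20, was at 133 ± 26.3 against 12.3 ± 0.316 FPKM. Socs3 and Socs1, which restrain cytokine receptors, were 26.7-fold and 19.3-fold higher with LPS. The subunit gene Relb differed little, at 89.0 FPKM with LPS and 67.6 with tunicamycin (log2 -0.39 ± 0.13, limma adjusted p = 0.0256), both above the controls at 11.9 to 17.2. Its call was lost without LPS replicate 1 or 3 and without tunicamycin replicate 2 or 3. The call was also lost with the libraries scaled to equal sums, with quantile normalization, without the eBayes trend and with a minimum of 2-fold.

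Interferon-response genes had 22 of 39 higher with LPS, 0 higher with tunicamycin and 17 not passed (median -0.85), and the interferon-inducible GTPases 9 of 11 higher with LPS and 2 not passed (median -1.63). Ifit1 was at 192.5, 499.9 and 300.7 FPKM with LPS and 8.16, 12.5 and 10.2 with tunicamycin (log2 -4.79 ± 0.30), beside 0.525 to 2.37 in controls. Replicate 2 was the highest of the LPS libraries for Ifit1, and likewise for Rsad2, the antiviral enzyme viperin (187, 604 and 330 FPKM), Oasl1 (39.6, 106 and 64.0) and Irgm1 (160, 292.5 and 181). For the whole interferon list the LPS sums were 1369, 2944 and 1975 FPKM and the tunicamycin sums 531 to 635. Calls on Ifit1, Rsad2, Oasl1 and Irgm1 were kept in the fit without LPS replicate 2. Of the IRF and STAT factors, 5 of 14 were higher with LPS, 2 with tunicamycin and 7 did not pass (median -0.12), or 3 and 3 after scaling to equal sums (median 0.10). Irf1, an interferon regulatory factor, was 5.94-fold higher with LPS, whereas Irf8, which myeloid cells need, was 2.67-fold higher with tunicamycin, at 76.9, 83.5 and 81.1 against 25.0, 33.7 and 30.4 FPKM. Controls were at 57.5 to 63.3 FPKM for Irf8, between the 2 agents.

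Of the LPS receptor complex, Toll-like receptors and adaptors, 11 of 24 were higher with LPS, 3 higher with tunicamycin and 10 not passed (median -0.54). Tlr4, the receptor, was at 17.4, 19.3 and 21.2 FPKM with tunicamycin and 5.19, 6.14 and 6.49 with LPS (log2 1.55 ± 0.19), and the controls were at 20.3 to 23.6. Cd14, the co-receptor, went the other way, at 131, 141 and 132 FPKM with tunicamycin and 1570, 1627 and 1588 with LPS (log2 -3.56 ± 0.09), with controls at 251 to 312. So the level far from control was the LPS level for Tlr4, and for Cd14 the LPS libraries were above and the tunicamycin libraries below the controls. Tlr2, the receptor for bacterial lipoproteins, was at 596 ± 21.8 FPKM with LPS and 46.9 ± 2.47 with tunicamycin. The other 2 members higher with tunicamycin, named after their values were seen, were Ticam2, the TRAM adaptor of TLR4 (log2 1.84), and Tab1 (log2 1.21).

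Inflammatory enzymes and their neighbours had 17 of 32 higher with LPS, 1 higher with tunicamycin and 14 not passed (median -0.60), or 13 and 3 after scaling to equal sums. Ptgs2, the inducible cyclooxygenase, was at 96.0, 113 and 151 FPKM with LPS and at 0.923, 2.03 and 1.44 with tunicamycin. Nos2, the inducible nitric oxide synthase, was at 7.31, 11.2 and 14.2 FPKM against 0 to 0.297. Costimulatory, adhesion and activation genes had 19 of 30 higher with LPS and 1 with tunicamycin (median -1.34), among them Cd69, an early activation antigen, at 388 ± 109 against 11.8 ± 3.76 FPKM. Immediate early genes were more mixed, with 12 of 26 higher with LPS and 5 with tunicamycin (median -0.47), or 11 and 8 after scaling. Klf4, a transcription factor, was at 4.74, 5.33 and 4.95 FPKM with tunicamycin and below 1 in the LPS and control libraries. Egr2 was at 8.51, 4.21 and 8.52 FPKM with LPS and below 1 with tunicamycin. Of the phosphatases and feedback genes of MAP kinases, 7 of 12 were higher with LPS and 0 with tunicamycin, led by Dusp2 (log2 -3.38 ± 0.25), or 6 and 2 after scaling to equal sums.

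Receptor genes included cases in which the tunicamycin level was the one far from control. G protein-coupled receptors of chemoattractants, purines and lipids had 17 of 29 higher with LPS, 7 with tunicamycin and 5 not passed (median -0.86). C5ar1, the receptor for complement C5a (chr7:16246743-16259540, minus strand), was at 36.8, 37.7 and 26.2 FPKM with tunicamycin and 746, 806 and 666 with LPS (log2 -4.44 ± 0.15), while controls were at 540 to 612. Its tunicamycin libraries were thus far below both other groups. Msr1, a scavenger receptor, was at 116 ± 11.4, 516 ± 25.0 and 454 ± 22.2 FPKM in the same order. Fpr1, which senses bacterial formyl peptides, was instead near absent in controls (0.285 FPKM on average) and at 29.6 FPKM with LPS against 1.06 with tunicamycin.

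Homeostatic macrophage receptors and lineage factors had 15 of 32 higher with LPS, 3 with tunicamycin and 14 not passed (median -0.38), or 12 and 6 after scaling to equal sums. Members higher with tunicamycin included the transcription factor Cebpa and the receptor kinase Mertk, which takes up dying cells. Cebpa was at 6.71 ± 0.699 FPKM with tunicamycin, 1.24 ± 0.378 with LPS and 7.90 ± 0.720 in controls. Mertk was at 8.82, 4.73 and 9.09 against 3.58, 4.40 and 1.78 FPKM, and its call was lost without LPS replicate 3. Spi1, the lineage factor PU.1, was 1.41-fold higher with LPS in the deposited values, and quantile normalization turned this to a log2 difference of 0.009.

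Growth arrest, death and survival genes divided, with 6 of 35 higher with tunicamycin, 14 with LPS and 15 not passed (median -0.22, or 0.03 after scaling to equal sums, with 11 and 13 calls). Bcl2l1, the survival gene Bcl-xL, was at 14.2, 12.7 and 11.7 FPKM with tunicamycin, 113, 132 and 122 with LPS and 81.2 to 91.6 in controls (log2 -3.16 ± 0.11). Ripk2, the kinase of the NOD sensors, and Nlrp3, an inflammasome sensor, were 6.28-fold and 7.99-fold higher with LPS. Cell cycle and replication genes had 14 of 39 higher with LPS and 3 with tunicamycin (median -0.24), against 7 and 5 after scaling to equal sums (median 0.01). Ccnd1, cyclin D1, was at 4.77, 3.68 and 2.83 FPKM with tunicamycin and 19.6, 37.8 and 12.7 with LPS. Cdc6 and Cdt1, which license replication origins, were 2.56-fold and 2.10-fold higher with tunicamycin, and their control means of 9.41 and 43.1 FPKM were above both agents.

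Glycolysis and HIF-1 targets had 13 of 26 higher with LPS and 2 with tunicamycin (median -0.32), or 8 and 4 after scaling to equal sums (median -0.07). Slc16a3, the lactate exporter MCT4, and Slc2a1, the glucose transporter GLUT1, differed most, at 3.57-fold and 2.83-fold higher with LPS. Sterol and lipid genes had 10 of 33 higher with LPS and 3 with tunicamycin (median -0.29), or 7 and 5 after scaling. Mvd, an enzyme of the mevalonate pathway, was 2.80-fold higher with tunicamycin and Idi1, the next enzyme of that pathway, 3.19-fold higher with LPS. NRF2 and iron genes were divided at 6 with tunicamycin, 8 with LPS and 10 not passed of 24 (median -0.08), or 9 and 5 after scaling (median 0.18). Nfe2l2, which encodes NRF2, was at 188 FPKM with LPS and 71.4 with tunicamycin on average. Its target Gclc was at 12.7 and 29.4 in the same order, whereas Slc7a11 and Gstm1 of the same list were higher with LPS (log2 -1.57 and -0.96). Lysosome and autophagy genes had 6 of 37 on each side and 25 not passed (median -0.004), but 17 with tunicamycin and 1 with LPS after scaling (median 0.26). Within them the autophagy genes Nbr1 and Atg12 were 3.49-fold and 3.34-fold higher with tunicamycin.

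Not every gene far from control told the agents apart. Sqstm1, the autophagy receptor p62 and a stress gene (chr11:50199366-50210827, minus strand), was at 3529, 3118 and 3446 FPKM with tunicamycin and 3257, 3046 and 3794 with LPS. The groups overlapped, with a log2 difference of 0.004 ± 0.11 and a 95% interval of -0.24 to 0.25, while controls were at 650 to 668. Csf1, the gene of M-CSF, was at 36.1 ± 1.48 and 42.8 ± 7.54 FPKM against 5.06 ± 1.59 in controls, and at 250 ± 23.5 with both agents. Slc2a6, a sugar transporter of the lysosome, was at 149 ± 12.5 and 158 ± 20.3 FPKM against 27.5 ± 6.39. Among genes below control with either agent, Dusp6, a phosphatase of ERK, was at 2.59 ± 0.320 with tunicamycin, 3.90 ± 1.51 with LPS and 35.0 ± 4.55 in controls. Gpr183, an oxysterol receptor that guides migration, was at 3.01 ± 1.15, 2.38 ± 0.752 and 30.0 ± 2.44 FPKM. These genes were picked by the position of both groups against the same controls, so that position is a description and not a test.

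**Figure D5:**
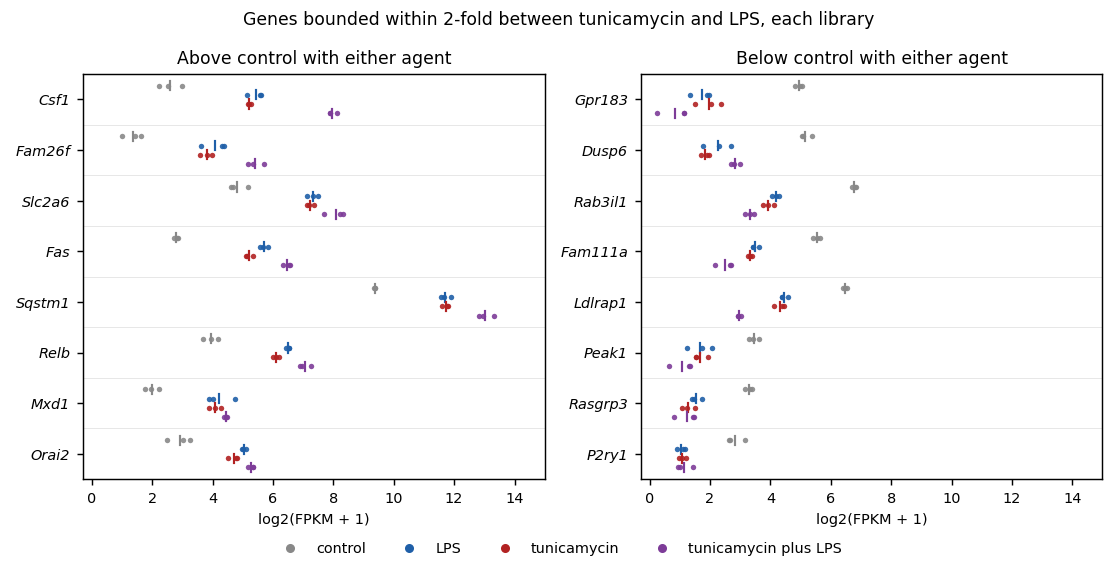
Values of log2(FPKM + 1) in each library (points; ticks are group means of 3) for 8 genes above and 8 genes below control with either agent, whose tunicamycin minus LPS difference is bounded within 2-fold. Tunicamycin and LPS points lie close together for each gene and away from the grey control points, as for Sqstm1 and Dusp6.

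Markers of cell types were read beside these results. Macrophage markers summed to 26090, 26940 and 28950 FPKM with tunicamycin and 27870, 26570 and 30160 with LPS, with overlapping groups, and 2 of the 11 tested were higher with tunicamycin and 4 with LPS, or 5 and 3 after scaling to equal sums. Neutrophil markers moved with the comparison: 5 of the 7 tested were higher with LPS and 0 with tunicamycin. Their summed level was 219 to 349 FPKM with LPS, 28.6 to 49.3 with tunicamycin, 105 to 145.5 in controls and 33.9 to 48.9 with both agents. S100a8, a calcium-binding protein abundant in neutrophils, was at 187, 124.5 and 102 FPKM with LPS and 8.69, 5.92 and 12.8 with tunicamycin. Of the stromal markers, 4 of the 7 tested were higher with tunicamycin and 0 with LPS, and their summed levels were 32.0 to 53.8 FPKM against 20.8 to 27.9. The calls on 2 of the 4, Col1a2 and Lum, were both lost without tunicamycin replicate 3, without LPS replicate 1 and without LPS replicate 2. Dcn, decorin, was the largest of these differences, at 4.29, 12.6 and 14.4 against 1.51, 2.03 and 2.53 FPKM. Whether these transcripts came from other cells or from the macrophages was not tested. What part any other cells have in the differences of other genes was also not tested. Of the dendritic cell markers 2 were tested and 1 was higher with LPS, the single T or NK cell marker and the single B cell marker tested did not pass, and 0 erythroid or mast cell markers reached the filter. The T cell gene Cd3e, the B cell gene Ms4a1, the erythroid gene Slc4a1 and the mast cell gene Cpa3 were listed at 0 in all 6 libraries.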

How the data were processed

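The 12 libraries were sequenced from total RNA, per the labels, and the deposited table gives FPKM per gene symbol and library. The submitters' processing notes list Cufflinks 2.2.1, SAMtools 0.1.19, Bowtie2 2.2.3, TopHat2 2.0.13 and the build mm10. Neither the annotation nor how libraries were scaled is given in the sources used here. Values were taken as log2(FPKM + 1), and limma 3.58.1 (R 4.3.3; eBayes with a trend) fitted 1 mean per group over all 12 libraries on genes with at least 1 FPKM in 3 libraries. The contrast was tunicamycin minus LPS, with Benjamini-Hochberg adjusted p under 0.05. FPKM is not a count, so no count test was run. The fit was first tested on simulated data.

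The members, the 34 gene lists and the naming rule were chosen with earlier results of these data known. The rule took the 15 largest passing differences per side without overlap, up to 5 passing members per list, 20 fixed genes, up to 10 near-absent markers per side, up to 8 genes per direction that share a departure from control, and the promoter genes. Some genes named by the rule are not reported here. Coordinates are GENCODE M21 and promoters RefSeq GRCm38.p6. Figures used matplotlib 3.10.9 and pandas 2.3.3.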

Additional observations from a re-analysis of the deposited data

How the results depend on the processing

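Under other settings (pseudocount 0.1, other filters, median-of-ratios and quantile scaling, only the 6 libraries, other eBayes settings) the number of passing genes was 3366 to 4207 against 3829. Scaling every library to the same FPKM sum, added after the data were seen, gave 3132 genes higher with tunicamycin and 1231 higher with LPS. With that scaling 1288 genes were at least 2-fold higher with tunicamycin and 489 with LPS. A test against a minimum of 2-fold (treat) called 392 genes, 144 with tunicamycin and 248 with LPS, by construction fewer. Bounding within 1.5-fold held 2547 genes in place of 6573. Near-absent markers fell from 32 to 13 with at least 10 FPKM where present (3 with tunicamycin, 10 with LPS), and to 13 with less than 0.5 FPKM where absent (2 and 11). Without each tunicamycin or LPS replicate in turn, 3108 to 3345 genes passed, 1414 to 1558 with tunicamycin and 1694 to 1787 with LPS. At least 2-fold were 1317 to 1393 (668 to 718 and 640 to 678), bounded genes 5965 to 6097 and near-absent markers 35 to 37 (8 to 10 and 26 to 29). Control replicate 2 and replicate 3 of the group with both agents correlated least with their groups, by small margins (means of 0.9756 and 0.9732). Without each of these in turn, 3936 and 3953 genes passed. With the replicate number as a block 3839 passed, and no call on a named gene changed. Deviations of same-numbered tunicamycin and LPS libraries from their group means correlated at 0.0526, 0.0425 and -0.0178 across genes. Differently numbered ones correlated at -0.0791 to 0.0305. Deviations from means of so few libraries cannot show whether the numbers pair samples, which the labels leave unsaid.

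Of 169 passing genes named by the rule, 118 lost their call in no alternative that tested them and 40 lost it only with the minimum of 2-fold. The filter at 5 FPKM tested 175 of the 184 named genes and the filter over the 6 libraries 181. The other 11 were Col1a2, Dusp14, Fas, Ifi47, Irf7, Lum, Mertk, Mmp8, Relb, Spi1 and Ulk1. Spi1 turned from -0.50 to 0.009 with quantile normalization (limma adjusted p = 0.942); the cause was not tested. FPKM keeps no depth, so low genes are read only by the spread of 3 libraries.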
